A study of Sus scrofa with 6 samples.

Results

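The genes described here are the cytosolic factors that carry a ribosome through initiation, elongation and termination of translation, together with the aminoacyl-tRNA synthetases. They were taken from the array's gene annotation by symbol: EIF1 to EIF6 names without EIF1AY and the EIF2AK kinases, EEF1 and EEF2 names, ETF1, GSPT1, and the synthetase names built from an amino acid letter and ARS, with EPRS. The rule used names and no measured value. It found 77 genes among the 13754 named genes on the array, represented by 136 probe sets. Of these, 39 are initiation factors by name, 9 are elongation or termination factors, 15 are cytosolic synthetases and 11 are mitochondrial synthetases. The other 3 carry old EIF2C names, are argonautes, and are kept apart. EIF2S2, ETF1 and WARS were not analysed here. Expression was measured in blood monocytes of 3 Large White x Landrace piglets, 8 weeks old. Mononuclear cells had been frozen, thawed, stained and sorted on CD14 and CD163. From each pig the sort gave a CD14low population with high CD163 (CD163high) and a CD14high population with low CD163 (CD163low), and each was hybridised to 1 porcine Affymetrix array. This gave 6 arrays, 3 per population. No agent or genetic change was used in either population, and the comparison asked which transcripts differ between them. Values are log2 signals, listed for pigs 1, 2 and 3 in that order, and differences are log2 signal in CD163high minus CD163low with the standard error (SE) of the limma fit. The probe set with the highest mean over the 6 arrays stands for a gene. Signals of different probe sets depend on their probes and are not compared as amounts.

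Translation of a capped messenger RNA begins when eIF2 brings the initiator tRNA to the small ribosomal subunit, eIF3 holds the subunit ready, and the cap-binding complex eIF4F unwinds the leader for scanning. eEF1A then delivers each aminoacyl-tRNA and eEF2 moves the ribosome by a codon. The synthetases charge tRNAs with their amino acids. Several of the cytosolic ones are held in a multisynthetase complex, while a largely separate set of nuclear genes serves the mitochondrion. GARS and KARS serve both compartments and are counted here with the cytosolic ones. Many of the factor genes carry a pyrimidine-rich transcript start that ties their translation to the mTORC1 pathway, and many synthetase genes are targets of the amino acid response factor ATF4.

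The sort antigen CD163 had signals of 8.17, 7.98 and 7.61 in CD163high, against 4.97, 6.17 and 6.54 in CD163low, so its groups did not overlap. CD14, the other sort antigen, had 4.31, 5.53 and 5.82 in CD163high, against 6.24, 5.78 and 6.84 in CD163low. Its groups overlapped, since CD163high of pig 3 lay just above CD163low of pig 2, and its differences within the pigs were -1.93, -0.25 and -1.02. The array labelled CD163high of pig 3 and the one labelled CD163low of pig 1 had the highest mean signal of the background controls, at 3.67 and 3.29. The other 4 arrays had 2.60 to 3.06. The Y-linked EIF1AY, which the rule leaves out, had 9.16, 9.17 and 4.57 in CD163high and 5.09, 9.12 and 6.88 in CD163low. The arrays labelled as the same animal therefore differed by 4.07 in pig 1 and by -2.31 in pig 3. The lowest EIF1AY signals, 4.57, 5.09 and 6.88, were on the arrays of highest background, at 3.67, 3.29 and 3.06. The cause was not tested. A second, dimmer EIF2S3 probe set ran with the pig labels instead, at 2.13, 7.18 and 6.39 in CD163high and 1.78, 7.19 and 6.29 in CD163low. The fit without a pig term does not use these labels, and every value given for a single pig rests on them.

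The initiation, elongation and cytosolic synthetase genes had mostly positive differences, that is, higher signals in CD163high monocytes, and the mitochondrial synthetases had a median difference near 0. No single member passed the test. Across all 47722 probe sets limma called 0 at a Benjamini-Hochberg adjusted p under 0.05 (0%), and 0 of the 77 members, each with an adjusted p of 1. With the pig as a block limma also called 0 members against a background of 0%. In limma without the block, 2 members, EIF6 and AARS, had an unadjusted p under 0.05 and were higher in CD163high, where 1.84% of all genes did so, and 0 members were lower, where 1.43% did (3.27% in either direction, and 2.59% of all probe sets). With the pig as a block 4 members had an unadjusted p under 0.05 in limma, all higher, beside 2.67% of all genes higher, 2.45% lower and 5.12% in either direction. The added ones were EIF3H and QARS. The signals of the 2 populations did not overlap for 4 members that were higher in CD163high (AARS, EIF4E2, EIF5A and EIF6), beside 3.02% of all genes, and for 0 that were lower, beside 3.16%. In these bulk samples fewer cells of a type and less RNA per cell cannot be told apart.

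Counted without regard to the test, 55 of the 77 members (71.4%) had a positive difference, with a median of 0.30 over the members, beside 47.7% of all genes and a median of -0.013. The median was 0.37 over the 39 initiation factors, of which 31 were positive. It was 0.54 over the 9 elongation and termination factors, of which 8 were positive. The cytosolic synthetases had a median of 0.41 with 11 of 15 positive. The mitochondrial synthetases had a median of -0.0023 with 5 of 11 positive, which quantile normalization and median centring turned to 0.036 and 0.037. The pigs differed. The median over all members was 0.72 in pig 1, 0.26 in pig 2 and -0.032 in pig 3. In pigs 1, 2 and 3, 72.7%, 77.9% and 48.1% of the members were positive, beside 42.0%, 52.8% and 51.3% of all genes. The difference was positive in all 3 pigs for 18 members (23.4%) and negative in all 3 for 0, beside 10.5% and 12.5% of all genes. Differences ran from -0.53 for CARS2 to 1.09 for EIF2S1, and 2 members were beyond 1 in size.

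**Figure D1:**
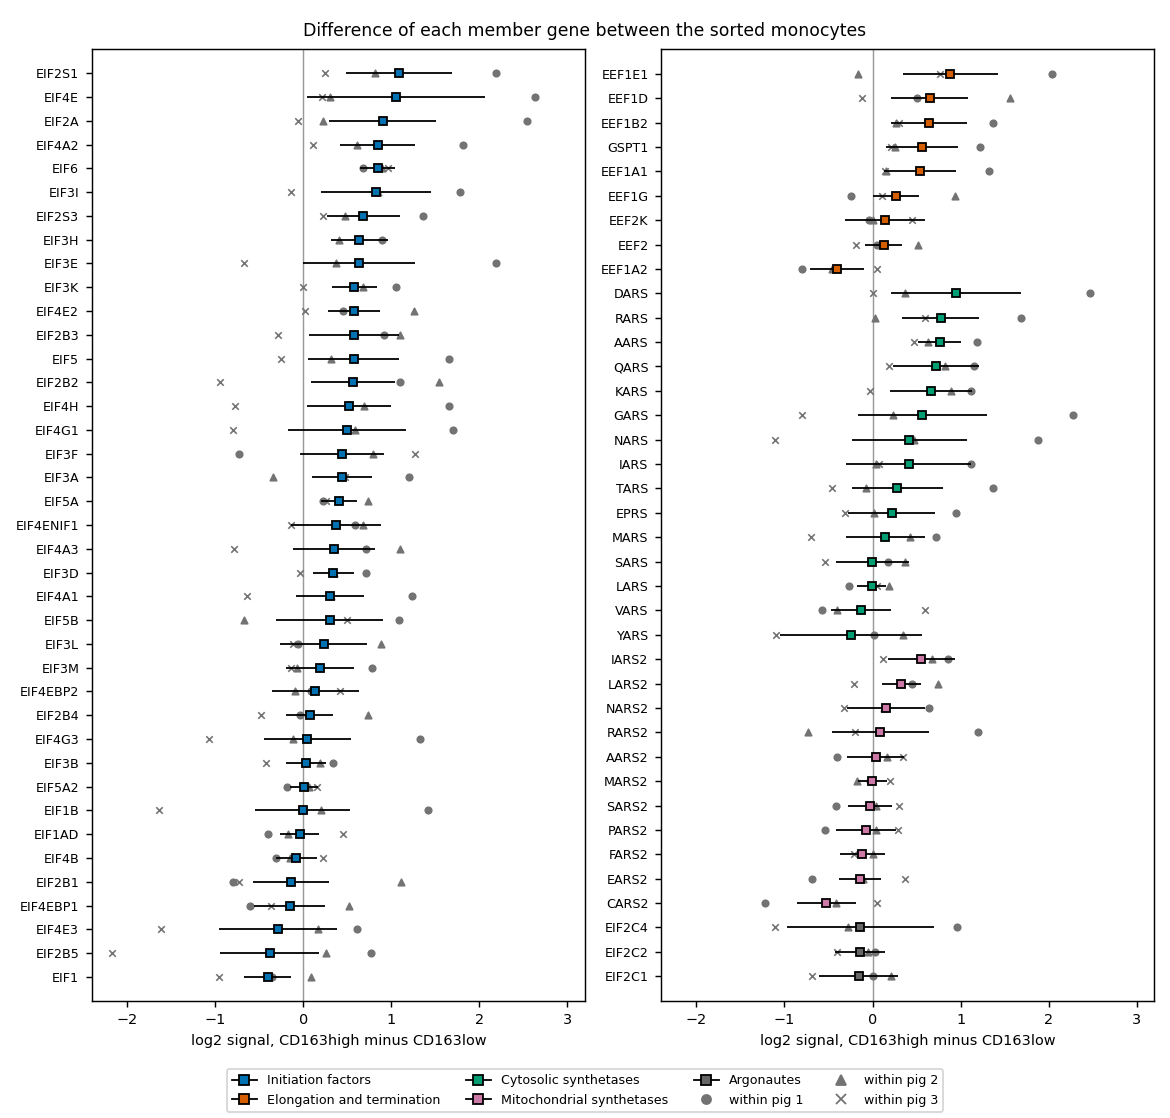
Difference of log2 signal, CD163high minus CD163low, of the 77 members (squares coloured by class, bars showing the SE of the limma fit without a block), with the differences within pigs 1, 2 and 3 as circles, triangles and crosses. Of the 77 squares 55 lie right of 0, and the circles of pig 1 lie furthest right for many initiation factors and cytosolic synthetases.

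The eIF2 complex, the carrier of the initiator tRNA, had the largest difference among the initiation factors. EIF2S1 encodes its alpha subunit, whose phosphorylation slows translation under stress. It had signals of 7.53, 7.16 and 5.44 in CD163high and 5.34, 6.33 and 5.20 in CD163low, a difference of 1.09 ± 0.60. The CD163high arrays of pigs 1 and 2 stood above all others, and that of pig 3 lay within the CD163low range. EIF2S3, the gamma subunit that binds the tRNA, had 8.17, 7.91 and 6.81 in CD163high and 6.81, 7.44 and 6.59 in CD163low, a difference of 0.68 ± 0.42. Both genes were higher in CD163high in all 3 pigs, most in pig 1 and least in pig 3, and their groups overlapped. EIF2A, a monomeric protein that can also deliver the initiator tRNA, had a difference of 0.90 ± 0.61 that was 2.54 in pig 1, 0.22 in pig 2 and -0.059 in pig 3. Its second probe set had -0.015.

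The eIF2B complex recharges eIF2 with GTP, and the sign of its 5 subunit genes depended on the pig. Their median difference was 0.073, with 3 of 5 positive. Pig 2 had 5 of 5 positive with a median of 1.10, pig 1 had 3 of 5 with 0.78, and pig 3 had 0 of 5 with -0.72. Without pig 3 the count was 5 of 5 (median 0.52), and without pig 2 it was 2 of 5 (-0.26). It was also 5 of 5 (0.15) without CD163low of pig 3, and 2 of 5 without either array of pig 2. EIF2B3 had 0.58 ± 0.52 by its brightest probe set and -0.53 by the other, and its CD163high signal in pig 3 lay under the background mean of that array. EIF2B2 had 0.57 ± 0.48, and EIF2B4 had 0.073 ± 0.27. EIF2B1 had signals of 5.37, 5.92 and 5.61 in CD163high and 6.17, 4.81 and 6.34 in CD163low, a difference of -0.14 ± 0.43. The CD163low arrays held both its highest and its lowest values. EIF2B5, the catalytic subunit, had 5.90, 6.09 and 4.46 in CD163high and 5.12, 5.84 and 6.64 in CD163low, a difference of -0.38 ± 0.56. Its differences of 0.78, 0.26 and -2.18 in the 3 pigs had opposite signs. Its second probe set had 0.22, and 1 of the 3 EIF2B1 probe sets was negative.

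The subunits of eIF3, the scaffold on the small ribosomal subunit, all had positive differences, also under quantile normalization and median centring. The 10 measured genes ranged from 0.037 for EIF3B to 0.83 for EIF3I, with a median of 0.44. By pig the medians were 0.84, 0.39 and -0.075, and without pig 1 the count was 7 of 10, with a median of 0.25. EIF3H had 11.10, 11.56 and 10.88 in CD163high and 10.21, 11.15 and 10.26 in CD163low, a difference of 0.64 ± 0.33 (limma unadjusted p = 0.0952). Its CD163low array of pig 2 lay above the CD163high arrays of pigs 1 and 3, so the groups overlapped, while the difference was positive in each pig (limma unadjusted p = 0.0243 with the pig as a block). EIF3K had 9.23, 9.16 and 8.48 in CD163high and 8.17, 8.48 and 8.48 in CD163low, a difference of 0.58 ± 0.25. The CD163high arrays of pigs 1 and 2 were clear of the rest, and in pig 3 the populations differed by 0.0023. EIF3A, the largest core subunit, had 7.91, 7.33 and 7.20 in CD163high and 6.71, 7.67 and 6.72 in CD163low, a difference of 0.44 ± 0.34. Pig 2 had the opposite sign, at -0.34. EIF3E had 10.49, 10.57 and 8.94 in CD163high and 8.29, 10.19 and 9.60 in CD163low, a difference of 0.63 ± 0.63. Its pigs ran from 2.19 in pig 1 to -0.67 in pig 3. EIF3F had 5.42, 5.98 and 7.10 in CD163high and 6.15, 5.19 and 5.83 in CD163low, a difference of 0.45 ± 0.48. Unlike the medians of the subunits, its difference was lowest in pig 1 (-0.73) and highest in pig 3 (1.27), and 1 of its 3 probe sets was negative. Of the 10 subunit genes 8 were positive in pig 1 and 4 in pig 3. The other subunits, EIF3B, EIF3D, EIF3I, EIF3L and EIF3M, had differences of 0.037 to 0.83, and EIF3M was under the background mean on 3 arrays.

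Of the 9 genes of the eIF4 group, which recognises the cap and unwinds the leader, 7 had positive differences and the median was 0.50, or -0.039 with 4 of 9 positive without pig 1. EIF4E, the cap-binding protein, had 8.19, 7.27 and 4.74 in CD163high and 5.55, 6.97 and 4.52 in CD163low, a difference of 1.05 ± 1.01. The pigs spread further apart than the populations did, and both arrays of pig 3 were the lowest. The other 3 EIF4E probe sets lay under the background mean on at least 4 arrays each. EIF4E2, a cap-binding homologue that represses rather than starts translation, had 5.57, 6.35 and 5.27 in CD163high and 5.13, 5.09 and 5.24 in CD163low, a difference of 0.58 ± 0.30 (limma unadjusted p = 0.0981). Its groups did not overlap, by a gap of 0.025 within pig 3. EIF4A2, a helicase subunit, had 10.42, 10.52 and 9.49 in CD163high and 8.61, 9.91 and 9.37 in CD163low, a difference of 0.85 ± 0.43 (limma unadjusted p = 0.0918). It was higher in CD163high in every pig and its groups overlapped. EIF4A1, the other helicase, had 8.77, 8.77 and 7.79 in CD163high and 7.53, 8.46 and 8.42 in CD163low, a difference of 0.31 ± 0.38. CD163low of pig 1 and CD163high of pig 3 were its lowest arrays. Of the helicase cofactors EIF4H had 0.53 ± 0.48 and EIF4B -0.078 ± 0.24.

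The eIF4G scaffolds and the eIF4E-binding repressors showed smaller or mixed values. EIF4G1 had 7.08, 8.09 and 6.79 in CD163high and 5.38, 7.50 and 7.58 in CD163low, a difference of 0.50 ± 0.67. Its CD163low array of pig 1 was the lowest and the groups overlapped. Its other 2 probe sets were near background and had -0.13 and -0.093. EIF4G3 had 0.049 ± 0.50 by one probe set and -0.35 by the other. EIF4E3, a further cap-binding homologue, had 7.64, 8.26 and 5.75 in CD163high and 7.04, 8.09 and 7.36 in CD163low, a difference of -0.28 ± 0.67. CD163high of pig 3 was its lowest array, and its 5 probe sets ran from -0.86 to 0.54, 4 of them negative. EIF4EBP1, a repressor released by mTORC1, had 6.16, 6.17 and 6.71 in CD163high and 6.77, 5.66 and 7.08 in CD163low, a difference of -0.15 ± 0.40. Its groups overlapped. The relative EIF4EBP2 had 5.25, 6.43 and 6.58 in CD163high and 5.16, 6.52 and 6.17 in CD163low, a difference of 0.14 ± 0.49, with both arrays of pig 1 low. Each of these repressors had 1 probe set of each sign, and EIF4ENIF1, the eIF4E transporter, had 0.37 ± 0.51.

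EIF6, which keeps the large ribosomal subunit from joining too early, had the smallest p of the members. Its signals were 7.86, 7.80 and 7.60 in CD163high and 7.18, 6.91 and 6.64 in CD163low, a difference of 0.85 ± 0.20 (limma unadjusted p = 0.00513, adjusted p = 1). All 3 CD163high arrays lay above all 3 CD163low arrays, with differences of 0.68, 0.90 and 0.97 in the pigs. The second EIF6 probe set had 7.19, 7.56 and 6.25 in CD163high and 5.28, 6.50 and 6.76 in CD163low, a difference of 0.82 ± 0.50. There the size was alike but pig 3 had the opposite sign, so the groups overlapped. EIF5A, named as an initiation factor but known to aid elongation through its hypusine residue, had 8.46, 8.91 and 8.33 in CD163high and 8.23, 8.17 and 8.07 in CD163low, a difference of 0.41 ± 0.20 (limma unadjusted p = 0.0904). Its groups did not overlap, and the CD163low arrays lay close together. EIF5A2, its homologue, had 1.68, 1.77 and 1.75 in CD163high and 1.86, 1.70 and 1.59 in CD163low, under the background mean on all 6 arrays. EIF4A3, a helicase of the exon junction complex counted here by its name, had 0.35 ± 0.47.

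The start-codon factors had 2 of 5 positive values and a median of -0.0075, and neither was stable. The count was 3 of 5 under median centring and 4 of 5 without the 2 arrays of highest background. Dropping the CD163high array of pig 3 gave a median of 0.52, and dropping that of pig 1 gave -0.22, with 1 of 5 positive. EIF1, which guards start-codon choice, had 8.68, 8.46 and 8.25 in CD163high and 9.02, 8.38 and 9.20 in CD163low, a difference of -0.40 ± 0.27 (limma unadjusted p = 0.177). Pigs 1 and 3 had lower signals in CD163high and pig 2 did not. Its other 3 probe sets were under the background mean on every array, and 2 of the 4 probe sets were negative. EIF1B, a close homologue, had -0.0075 ± 0.54, made of 1.41 in pig 1 and -1.64 in pig 3, and 1 of its 3 probe sets was positive. EIF5, which triggers GTP hydrolysis by eIF2, had 0.57 ± 0.52 and EIF5B, which joins the subunits, had 0.30 ± 0.61. EIF1AD, counted here by its name, had -0.040 ± 0.22.

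**Figure D2:**
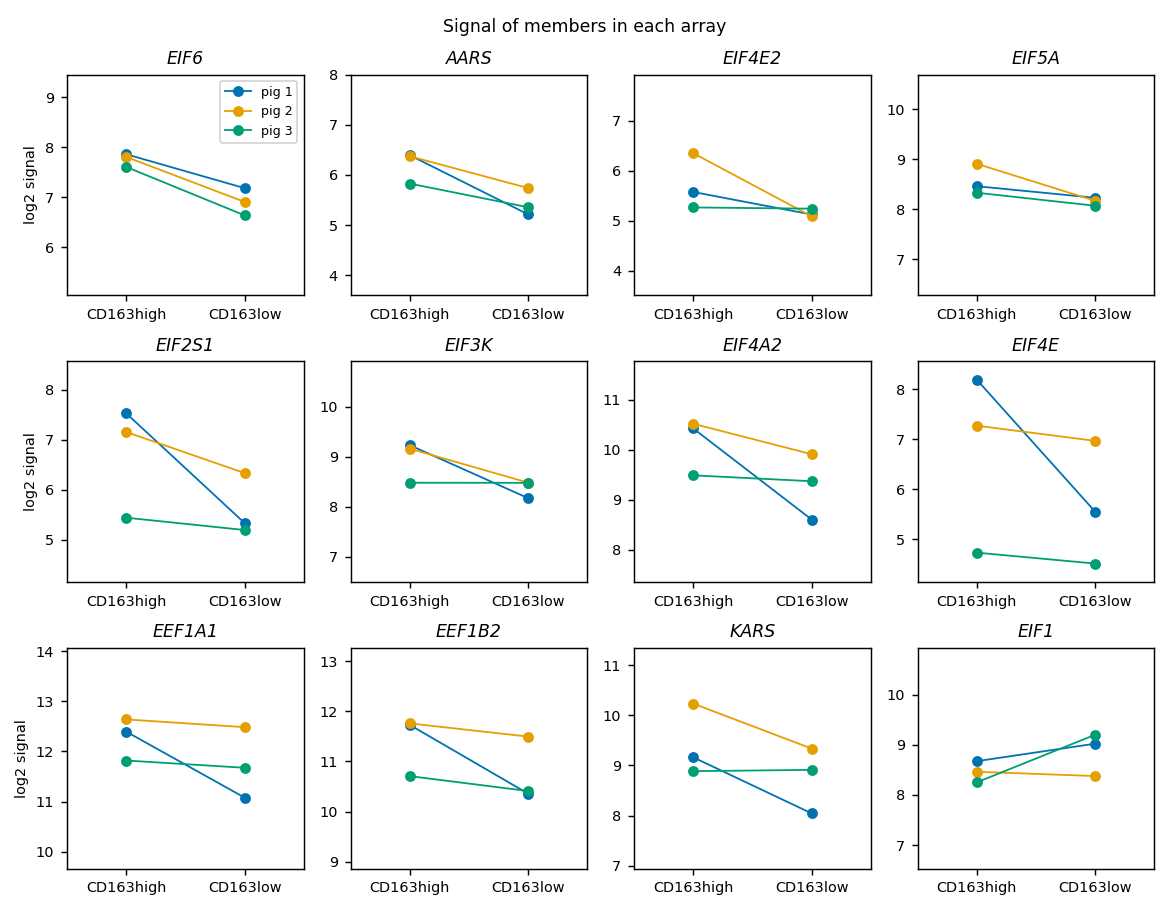
Log2 signal of 12 members in each array, with CD163high left of CD163low and a line joining the arrays labelled as 1 pig; every panel spans the same number of log2 units. EIF6, AARS, EIF4E2 and EIF5A have no overlap between the populations, while in EIF2S1, EIF4E, EEF1A1 and EEF1B2 the steepest line is that of pig 1.

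Among the elongation factors the eEF1 genes had 4 of 5 positive values and a median of 0.54, or 0.19 without pig 2. EEF1A1, which delivers aminoacyl-tRNA, had 12.40, 12.64 and 11.82 in CD163high and 11.08, 12.49 and 11.67 in CD163low, a difference of 0.54 ± 0.41 (limma unadjusted p = 0.231). It was higher in CD163high in each pig, by 1.32, 0.15 and 0.14. EEF1B2, an exchange factor for eEF1A, had 11.73, 11.76 and 10.71 in CD163high and 10.36, 11.49 and 10.41 in CD163low, a difference of 0.64 ± 0.43. As with EEF1A1, pig 1 had the widest gap and the groups overlapped. EEF1D, another exchange subunit, had 5.87, 6.85 and 5.08 in CD163high and 5.37, 5.28 and 5.20 in CD163low, a difference of 0.65 ± 0.43. Here pig 2 led with 1.56, and pig 3 was at -0.12. EEF1G had 0.27 ± 0.26 and was under the background mean on 1 array. EEF1A2, the isoform of muscle and neurons, had 2.72, 2.36 and 3.31 in CD163high and 3.52, 2.82 and 3.26 in CD163low, a difference of -0.40 ± 0.31, and was under the background mean on 3 arrays.

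Translocation and termination genes gave values that were small or differed between probe sets. EEF2 had 9.35, 9.86 and 9.45 in CD163high and 9.30, 9.35 and 9.64 in CD163low, a difference of 0.13 ± 0.21. The populations overlapped throughout. EEF2K, the kinase that inactivates eEF2, had 2.92, 3.04 and 4.32 in CD163high and 2.96, 3.03 and 3.87 in CD163low, a difference of 0.14 ± 0.45. Both arrays of pig 3 were its highest, and CD163low of pig 1 was under the background mean of that array. GSPT1, the release factor eRF3a, had 6.65, 6.92 and 5.93 in CD163high and 5.43, 6.66 and 5.72 in CD163low, a difference of 0.56 ± 0.41. It was higher in CD163high in each pig, while its other 2 probe sets were negative, the lower at -0.090. EEF1E1, in fact a scaffold protein of the multisynthetase complex, had 5.39, 3.95 and 3.63 in CD163high and 3.35, 4.11 and 2.87 in CD163low, a difference of 0.88 ± 0.54. Its pig 2 arrays had the opposite order, and 2 of its arrays were under the background mean.

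The cytosolic synthetases are described by whether they belong to the multisynthetase complex. This grouping came from textbook knowledge and was made after the values were seen, so it is a description. The 8 measured synthetases of the complex had a median of 0.54, with 7 positive, and the 7 outside it a median of 0.28, with 4 positive. The order of these medians depended on the arrays. Without pig 1 they were 0.15 and -0.26, but without CD163high of pig 2 they were 0.11 and 0.15. With array weights they were 0.63 and 0.77, and without the 2 arrays of highest background 0.48 and 0.70. Within the complex DARS, for aspartate, had the largest value at 0.95 ± 0.74, with 2.47 in pig 1. RARS, for arginine, had 7.48, 7.06 and 6.40 in CD163high and 5.79, 7.03 and 5.80 in CD163low, a difference of 0.77 ± 0.44. Its difference was positive in all pigs, by 0.031 in pig 2. QARS, for glutamine, had 7.21, 8.37 and 7.57 in CD163high and 6.05, 7.55 and 7.38 in CD163low, a difference of 0.72 ± 0.49 (limma unadjusted p = 0.19, and 0.0404 with the pig as a block). Its pigs lay further apart than its populations, and the groups overlapped. EPRS, the fused glutamate and proline enzyme, had 6.06, 6.39 and 4.97 in CD163high and 5.11, 6.38 and 5.28 in CD163low, a difference of 0.22 ± 0.49, and -0.063 by its second probe set. IARS and MARS, for isoleucine and methionine, had 0.41 ± 0.71 and 0.15 ± 0.45. LARS, for leucine, had 1.62, 1.78 and 1.77 in CD163high and 1.89, 1.59 and 1.71 in CD163low, under the background mean on all 6 arrays.

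KARS, for lysine, was read by 2 probe sets of nearly the same mean signal, 9.10 and 9.08, which gave different pictures. The brighter had 9.16, 10.23 and 8.89 in CD163high and 8.04, 9.34 and 8.91 in CD163low, a difference of 0.66 ± 0.47 (limma unadjusted p = 0.207), and its groups overlapped. The other had 9.20, 9.80 and 9.25 in CD163high and 8.45, 8.92 and 8.85 in CD163low, a difference of 0.68 ± 0.24 (limma unadjusted p = 0.0295). In that probe set all 3 CD163high arrays lay above all 3 CD163low arrays. It was singled out after its values were seen and is not among the counts above.

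Of the free enzymes AARS, for alanine, had the smallest p. It had 6.39, 6.37 and 5.83 in CD163high and 5.21, 5.74 and 5.36 in CD163low, a difference of 0.76 ± 0.24 (limma unadjusted p = 0.0188, adjusted p = 1). The groups did not overlap, and the pigs had 1.18, 0.63 and 0.47. Its unadjusted p was 0.156 without pig 1 in limma, with a difference of 0.55. It was also above 0.05 when any one of CD163high of pig 1, CD163high of pig 2, CD163low of pig 1 or CD163low of pig 3 was left out, and with trended robust variance (0.0813). NARS, for asparagine, had 8.55, 8.49 and 6.46 in CD163high and 6.67, 8.02 and 7.56 in CD163low, a difference of 0.42 ± 0.65. CD163high of pig 3 was its lowest array and CD163low of pig 1 the next, which are the arrays of highest background. GARS, which charges glycine in both compartments, had 0.57 ± 0.74, from 2.27 in pig 1 to -0.80 in pig 3. YARS, for tyrosine, had -0.24 ± 0.80 by its brightest probe set and 0.87 ± 0.51 by the other. VARS, for valine, had 3.71, 3.19 and 4.33 in CD163high and 4.28, 3.60 and 3.73 in CD163low, a difference of -0.13 ± 0.34, and 0.042 in its second probe set. Its groups overlapped and pig 3 had the opposite sign. TARS and SARS, for threonine and serine, had 0.28 ± 0.51 and -0.0017 ± 0.42.

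The mitochondrial synthetases showed no common direction. IARS2, for isoleucine, had 5.46, 5.66 and 4.41 in CD163high and 4.60, 4.98 and 4.29 in CD163low, a difference of 0.55 ± 0.38, and was the 1 of the 11 that was higher in all 3 pigs. CARS2, for cysteine, had 3.78, 3.53 and 4.22 in CD163high and 5.00, 3.94 and 4.16 in CD163low, a difference of -0.53 ± 0.34 (limma unadjusted p = 0.167). Its CD163low array of pig 1 was the highest and pig 3 had a difference of 0.053. EARS2, for glutamate, had 2.97, 3.07 and 3.44 in CD163high and 3.66, 3.18 and 3.08 in CD163low, a difference of -0.14 ± 0.23. FARS2, for phenylalanine, had 3.39, 2.93 and 2.79 in CD163high and 3.52, 2.92 and 3.00 in CD163low, a difference of -0.11 ± 0.25. Both overlapped between the populations, at signals near the background. MARS2 and SARS2, for methionine and serine, had -0.0023 ± 0.16 and -0.027 ± 0.25, with probe sets of both signs. The other 5, AARS2, LARS2, NARS2, PARS2 and RARS2, ran from -0.072 for PARS2 to 0.33 for LARS2. Of the 11 genes 6 were under the background mean on at least 1 array (AARS2, EARS2, FARS2, MARS2, NARS2 and RARS2), where the size of a difference is poorly measured. The 5 that were above it on all arrays had a median of -0.027.

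The median difference was larger among members with bright probe sets, and bright genes of the whole array also stood apart in pigs 1 and 3. Among the 42 members with a mean log2 signal above 6, 34 (81.0%) were positive and the median was 0.47. All 2597 genes above that level had 56.5% positive and a median of 0.071. The 35 members at or below it had a median of 0.073 with 21 positive, beside -0.025 over all 11157 genes at or below it, members included. All genes above 6 had medians of 0.59, 0.073 and -0.40 in pigs 1, 2 and 3, so bright genes in general had higher signals in CD163high of pig 1 and lower ones in that of pig 3. The members above 6 had 1.21, 0.35 and -0.045 in the same pigs.

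**Figure D3:**
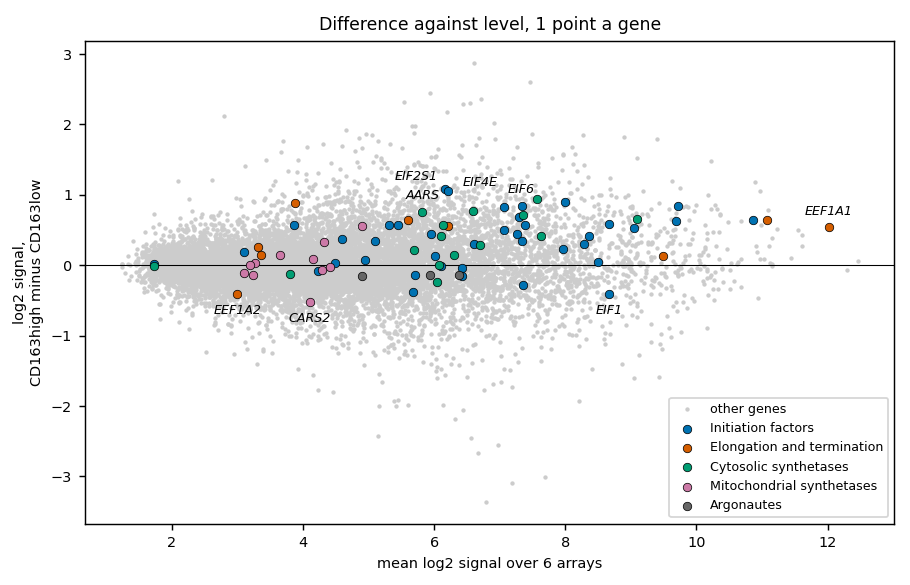
Difference of log2 signal, CD163high minus CD163low, against the mean log2 signal over the 6 arrays, 1 point per gene, with members coloured by class over all other genes in grey. Members right of a signal of 6 lie mostly above 0 (34 of 42), and the mitochondrial synthetases cluster at low signals around 0.

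The members' median signal tended to be lower on arrays with a higher background signal. Over the members, the median signal per array came to 6.37, 6.49 and 5.44 in CD163high, against 5.42, 6.42 and 5.83 in CD163low. The lowest medians were those of CD163low of pig 1 and CD163high of pig 3, the arrays with the highest background controls. CD163high of pig 2 held the highest signal of 35 members (45.5%), beside 12.7% of all genes. CD163high of pig 1 held that of 20 (26.0%), beside 14.2%. CD163low of pig 1 held the lowest of 26 (33.8%), beside 15.5%. CD163high of pig 3 held the lowest of 23 (29.9%), beside 16.9%. Among members with a mean log2 signal above 6 these shares were, in the same order, 54.8%, 33.3%, 52.4% and 26.2%. Over all genes above 6 they were 23.8%, 24.0%, 31.5% and 33.8%. The 4 arrays without the 2 of highest background set CD163high of pigs 1 and 2 against CD163low of pigs 2 and 3. Differences between pigs and between populations are therefore not separated in that comparison. On these 4 arrays the median difference of the members was 0.39, with 61 of 77 positive, beside -0.022 over all genes. There the initiation factors had 0.47, the elongation factors 0.44, the cytosolic synthetases 0.57 and the mitochondrial synthetases 0.13. Of the members 63 were above the background mean on all 6 arrays, and these had a median of 0.37 with 46 positive.

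**Figure D4:**
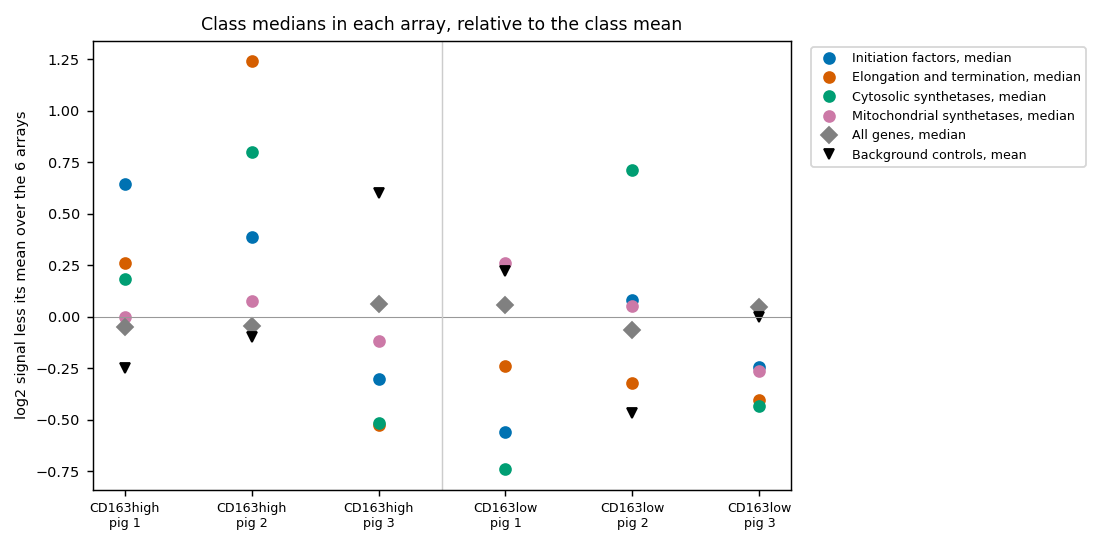
Median log2 signal of each class in each array less its own mean over the 6 arrays, with the median of all genes and the mean of the background controls treated alike; CD163high arrays are left and CD163low arrays right. The background controls are highest on CD163high of pig 3 (0.60) and CD163low of pig 1 (0.22), the arrays on which the initiation factors are lowest (-0.30 and -0.56).

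The initiation, elongation and cytosolic synthetase medians stayed above 0 whichever pig or array was left out, but their size depended on it. Leaving out pig 1 gave 0.14 for initiation, 0.23 for elongation and 0.058 for the cytosolic synthetases. Leaving out only the CD163low array of pig 1 gave 0.16, 0.30 and 0.076. With pig 3 omitted the values were 0.63, 0.74 and 0.65, and with its CD163high array omitted 0.63, 0.77 and 0.80. Omitting the CD163high array of pig 2 gave 0.20, 0.33 and 0.15, and omitting pig 2 gave 0.27, 0.21 and 0.46. The cytosolic synthetases had 0.23 and 0.15 when the CD163high array of pig 1 or the CD163low array of pig 3 was dropped, and 0.72 without that of pig 2 in CD163low. The mitochondrial median crossed 0 with the array left out, between -0.18 and 0.13.

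**Figure D5:**
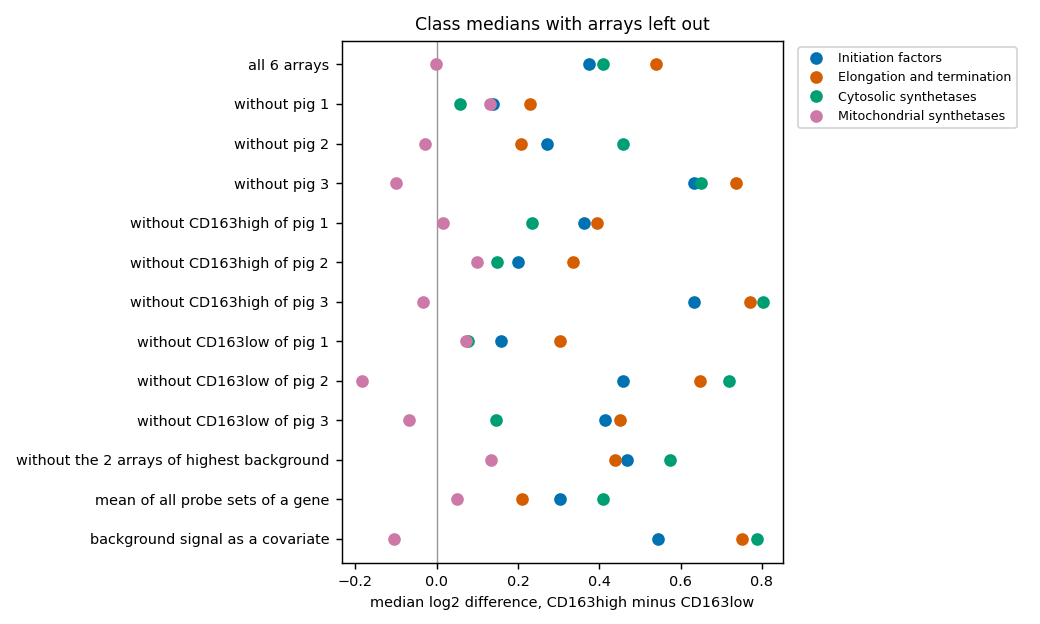
Median log2 difference, CD163high minus CD163low, of each class over all 6 arrays, with each pig or array left out, and under 3 other settings. The initiation, elongation and cytosolic synthetase medians stay right of 0 under each setting drawn. The initiation and cytosolic medians lie nearest to 0 without pig 1 (0.14 and 0.058) and the elongation median without pig 2 (0.21), and the mitochondrial synthetases lie on both sides.

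The argonautes, which bind small RNAs and share only an old name with eIF2, all had small negative differences over the 6 arrays. All 3 were positive without CD163high of pig 3 (median 0.073) and without CD163low of pig 2 (0.088), and 2 of 3 with array weights (0.068). In pig 1 alone 3 of 3 were positive. EIF2C1 had -0.16 ± 0.45, EIF2C2 (AGO2) -0.14 ± 0.28 and EIF2C4 -0.14 ± 0.84. Of their 4 probe sets each, EIF2C1 had 1 and EIF2C4 had 3 that were positive, and counting the 3 as initiation factors gave that class a median of 0.34.

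Of 57 listed regulators and neighbours of the pathway 46 were measured, 26 were positive, the median was 0.047 (-0.038 without pig 1) and 0 passed in limma over all probe sets. In limma 1 of the 46 had an unadjusted p under 0.05, beside 3.27% of all genes. This was SHMT2, the mitochondrial serine hydroxymethyltransferase, with 4.82, 5.30 and 5.06 in CD163high and 4.79, 4.37 and 4.31 in CD163low, a difference of 0.57 ± 0.22 (limma unadjusted p = 0.0397). Its groups did not overlap, as was so in that direction for 3.02% of all genes. With the pig as a block its limma unadjusted p was 0.0771. In that fit 2 other genes had one under 0.05, CXCL10 (0.00279) and TSFM (0.0481), beside 5.12% of all genes. The list of 12 ATF4 targets that holds SHMT2 had 4 positive differences and a median of -0.15. Without CD163low of pig 3 that median was -0.0091, with 6 positive. DDIT3, the stress factor CHOP, had 4.73, 4.88 and 4.77 in CD163high and 5.83, 5.26 and 4.90 in CD163low. The difference was -0.54 ± 0.26 (limma unadjusted p = 0.0836). All its CD163high arrays lay below all its CD163low arrays, as was so for 3.16% of all genes. ATF4 itself had -0.039 ± 0.23 and ASNS, asparagine synthetase, -0.055 ± 0.23. PHGDH, which opens serine synthesis, had -0.37 ± 0.30.

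The control arms of initiation were also mixed. The 6 genes of eIF2alpha kinases and phosphatase subunits had a median of -0.050, with EIF2AK3 (PERK) at -0.48 ± 0.34. The median of these 6 was between -0.16 and -0.014 with a pig or array left out. The 11 measured genes of mTORC1 and eIF4F control had a median of 0.017, or -0.015 after quantile normalization and -0.084 without pig 2, with LARP1, which binds pyrimidine-rich leaders, at -0.49 ± 0.39. The 6 mitochondrial translation factors had 5 positive and a median of 0.42. By pig the medians were 0.91 with 6 positive, -0.052 with 2 and -0.28 with 3, and without pig 1 the median was -0.17 with 3 positive. Among them were TSFM, an elongation exchange factor, at 0.48 ± 0.26 and the release factor MTRF1 at 0.45 ± 0.25, MTRF1 being under the background mean on 4 arrays. The interferon-induced list had 4 of 4 positive with a median of 0.66. The median was 0.29 without CD163high of pig 1 and 0.38 without CD163low of pig 3. The count was 3 of 4 without pig 1, without pig 3 and without CD163high of pig 2. CXCL10 led the list with 10.80, 6.40 and 6.48 in CD163high and 7.41, 4.90 and 4.27 in CD163low. Its difference was 2.36 ± 1.40. WARS, the synthetase known to be induced by interferon, was not analysed here.

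Genes listed as markers of other blood cells differed between the populations or between the pigs. All 8 T cell markers had negative differences, with a median of -0.46. The log2 of their summed signal was 9.15 to 11.14 over the CD163high arrays and 9.18 to 11.36 over the CD163low arrays. It was highest on both arrays of pig 2. Of the B cell markers 1 of 5 was positive (median -0.55), of the NK cell markers 0 of 6 (-0.15) and of the dendritic cell markers 0 of 4 (-0.66). The neutrophil list had 2 of 8 positive and a median of -0.94. Its log2 summed signal was 10.42 to 10.84 in CD163high and 11.16 to 12.001 in CD163low. The most negative were CXCR2 (-2.66), S100A8 (-1.47), CSF3R (-1.09), S100A12 (-0.95) and S100A9 (-0.93), while MPO had -0.097, PGLYRP1 0.061 and LTF 0.10. LTF was under the background mean on every array and MPO on 4. Of the platelet markers 1 of 4 was positive, of the plasma cell markers 1 of 3 and of the monocyte markers, CD14 and CD163 included, 3 of 7. The red cell gene HBB had 3.54, 10.78 and 4.64 in CD163high and 3.42, 10.50 and 4.21 in CD163low, high in both arrays of pig 2, and 2 of 3 red cell markers were positive. Whether the listed genes were read from such cells or from the monocytes themselves was not tested. The part of these cells, and of the background signal, in the members' values was not tested either.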

How the data were processed

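The authors deposited 1 table of probe-set intensity values for the 6 arrays. The submitters' processing notes name RMA and limma, with neither a version nor a role, and the sources used here give no probe-set definition or filter. RMA subtracts background, equalises arrays and summarises probes, which can compress low signals and their differences. How far this held for these arrays was not tested. Their medians over the probe sets that are not array controls ran from 3.13 to 3.31. Scales are mixed in what was deposited, as the first 186 rows hold log2 values already, and log2 was taken of the remaining 47659. After removal of 123 array controls 47722 probe sets remained, 26426 of them with 1 gene symbol in the array's annotation, whose symbols are those of its design. EIF4GI was joined to EIF4G1 through RefSeq synonyms, so that 78 symbols became 77 genes.

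Log2 values of all probe sets entered limma 3.58.1 (R 4.3.3) with the population as the only term. Tests were two-sided, and calls needed a Benjamini-Hochberg adjusted p under 0.05 over the 47722 probe sets. The procedure was tested on simulated data with independent noise. Those data had no pig effect and no array-wide shift, so they do not show how the fit behaves under either. Lists are described by counts and medians without a test. An array's background is the mean of its 69 background controls. Pairing comes from the pig named in the labels' descriptions, and deviations of same-pig arrays from their group means correlated at -0.20, 0.67 and 0.26. The 3 pigs are separate animals, and the number of arrays limits the precision.

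The members and lists were chosen with earlier results of these data known. Values of every array are given, per class and direction, for up to 4 members of smallest p, for the 2 brightest and the dimmest member of a class, for members without overlap, and for members picked for their role. Members whose probe sets disagree are at least named, as are up to 4 pathway genes of smallest p in each direction. Other members given by 1 value, ATF4, ASNS, and the second probe sets of KARS and EIF2S3, were named after their values were seen. Alternatives took the pig as a fixed or as a random term, let the variance follow a robust trend, weighted the arrays, dropped the dimmest 33.3% or 50% of probe sets, applied quantile normalization or median centring, averaged the probe sets of a gene, added the background as a covariate, changed the threshold, or left out pigs or arrays. Chosen after seeing the data were counting in the argonautes, leaving out members under background, and keeping EIF4GI apart. Sequences and genome positions are not used here.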

Additional observations from a re-analysis of the deposited data

How the results depend on the processing

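The adjusted test in limma called 0 members under every setting run, and 0 at an adjusted p of 0.1 without the block. With the pig as a replicate block 4 members had an unadjusted p under 0.05 instead of 2, and the adjusted calls stayed as they were. The class medians could not change. With both populations taken from each pig, the block leaves every difference as it is. Among pathway genes SHMT2 was lost at that p, and CXCL10 and TSFM were gained. The count of members was 0 with trended robust variance (2.11% of all genes) and 30 with array weights (22.8%). Those weights were 5.79 for CD163low of pig 3 and 0.38 to 1.88 for the other arrays. Weighted CD163low values therefore rest mostly on that 1 array. The count was 24 with the background signal as a covariate (13.8%) and 11 without the 2 arrays of highest background (5.16%). It was 1 to 14 with a pig or array left out (1.81% to 7.36%). At a p of 0.01 it was 1 (0.720%). Members without overlap numbered 2 under median centring (6.88% of all genes), 32 without the 2 arrays of highest background (30.3%), and 4 to 36 with a pig or array left out (10.2% to 28.3%), where fewer arrays overlap less. The 36 were without pig 3, beside 28.2%. The elongation median was 0.32 after quantile normalization, 0.21 with the mean of all probe sets and 0.75 with the background covariate. The mitochondrial median was 0.13 without the 2 arrays of highest background. With a pig or array left out the medians ran over 0.14 to 0.63 (initiation), 0.21 to 0.77 (elongation), 0.058 to 0.80 (cytosolic) and -0.18 to 0.13 (mitochondrial). Of 50 named genes 25 kept their sign in every setting. Array weights turned EEF2 (-0.079), EEF2K (-0.62), EIF2C4 (0.40), EIF3F (-0.029), EIF4E3 (0.21), EIF4EBP2 (-0.36), EIF4G1 (-0.051), FARS2 (0.14), MARS2 (0.075) and YARS (0.22). Quantile normalization turned EIF4G3 (-0.024), MARS2 (0.036) and SARS2 (0.0069), and median centring EIF1B (0.032), LARS (0.031), MARS2 (0.037) and SARS2 (0.012). The mean of all probe sets turned EIF1B (0.13), EIF2B1 (0.19), EIF2C4 (0.22), EIF4EBP1 (0.088), EIF4EBP2 (-0.037), EIF4G3 (-0.15), MARS2 (0.049) and YARS (0.31). The background covariate turned EEF2K (-0.052), EIF1B (0.26), EIF2C4 (0.32), EIF4E3 (0.095), EIF5A2 (-0.0026), MARS2 (0.0053) and YARS (0.13). Without the 2 arrays of highest background EEF2K (-0.47), EIF1B (0.19), EIF2B1 (0.072), EIF4E3 (0.22), EIF4EBP2 (-0.50), FARS2 (0.20), LARS (0.047) and YARS (0.10) turned. The cause was not tested.

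With a pig or array left out the sign turned, over these ranges, for EARS2 -0.40 to 0.13, EEF2 -0.069 to 0.28, EEF2K -0.31 to 0.43, EIF1B -0.72 to 0.81, EIF2B1 -0.76 to 0.19, EIF2B5 -0.96 to 0.52, EIF2C1 -0.59 to 0.10, EIF2C4 -0.76 to 0.55, EIF3E -0.15 to 1.28, EIF3F -0.021 to 1.03, EIF4A1 -0.16 to 0.78, EIF4E3 -0.80 to 0.45, EIF4EBP1 -0.58 to 0.14, EIF4EBP2 -0.26 to 0.56, EIF4G1 -0.22 to 1.15, EIF4G3 -0.59 to 0.61, EIF5A2 -0.062 to 0.11, EPRS -0.15 to 0.63, FARS2 -0.29 to 0.072, LARS -0.11 to 0.12, MARS2 -0.10 to 0.083, NARS -0.31 to 1.18, SARS2 -0.20 to 0.17, VARS -0.49 to 0.15 and YARS -1.05 to 0.40.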

Other observations

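A few probe sets of members followed a single pig rather than a population. The third EIF4H probe set had 2.92, 9.83 and 3.56 in CD163high of pigs 1, 2 and 3 and 3.33, 9.24 and 3.34 in CD163low, high in both arrays of pig 2, while the other EIF4H probe sets were within 7.52 to 9.70 on every array. The second EIF2S3 probe set was near 2 in both arrays of pig 1 and above 6 in the other 4. These probe sets were singled out after their values were seen.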
